A study of Mus musculus with 36 samples.

Results

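The Wnt genes described here were 52 genes chosen by symbol and sorted by role into 16 ligands, 2 genes of ligand secretion, 12 Frizzled receptors and LRP co-receptors, 5 R-spondins and their receptors, 7 secreted antagonists and 10 feedback targets and intracellular regulators. All 52 symbols were found among the 54281 genes of every deposited table, and 51 of them were among the 21601 genes that passed the filter on low counts. *Wnt10a*, a ligand, held at most 12 counts in any group and was not tested.

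RNA was sequenced from mouse ESC lines during neurobasal differentiation, a serum-free monolayer protocol that leads to antNPCs by day 5, with bFGF in the medium up to day 3. All lines were male and the labels of all of them, the controls included, give the strain as B6129S6F1 *Tet1*<tm1Koh>, where KO1, KO15, WT7 and WT34 were littermate-derived lines of this cross, and the ESCs were grown on fibroblast feeders and feeder-depleted before plating. The *Tet1* KO group held 15 libraries of 2 lines, KO1 and KO15, and the WT group 15 libraries of 2 lines, WT7 and WT34, with 2 libraries a group on days 0, 1, 2 and 4, 4 on day 3 and 3 on day 5. The *Tet1* MUT group, whose TET1 lacks catalytic activity, held 2 libraries on day 3 and 2 on day 5 from CM59 and CM69, which were clonal lines made from WT7 by Cas9 homology directed repair, and its control WT70 was 1 line with 1 library a day that the labels give only as WT. The libraries came in 3 tables, called experiments here: experiment 1 held days 0, 3 and 5, experiment 2 a second differentiation of the same 4 lines on days 1 to 5 with only KO1 and WT7 on day 5, and experiment 3 the MUT and WT70 libraries. Values of KO and WT libraries are listed with lines KO1 or WT7 before KO15 or WT34, and experiment 1 before experiment 2 on days 3 and 5. *Tet1* itself was not analysed here.

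In canonical Wnt signalling a lipid-modified Wnt ligand binds a Frizzled receptor and an LRP co-receptor, which shuts down the complex that destroys beta-catenin and lets beta-catenin act on genes through TCF/LEF factors. R-spondins raise the amount of receptor on the surface, secreted antagonists catch the ligand or block the co-receptor, and several targets of the pathway, such as *Axin2* and *Nkd1*, act back on it as brakes. In the early mouse embryo *Wnt3* is needed for the primitive streak, whereas the anterior neural plate forms where antagonists such as *Dkk1* keep Wnt signalling low.

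Total counts ran from 10.1 M to 26.3 M a library. Levels are in CPM, counts scaled to library size with TMM factors, unless TPM, which also divides by transcript length, is named. Differences are log2 fold changes ± SE from edgeR's quasi-likelihood test, a member passed where the adjusted p was below 0.05 and the log2 fold change above 1 in size, and p-values measure the spread between libraries of a few lines. The cell type label mESC was used for every day, but the summed level of 6 ESC markers fell from 3928 to 4231 CPM in WT on day 0 to 181 to 231 CPM on day 5. Replicate 3 of WT on day 5, the library of experiment 2, stood apart from the other two: it held the upper end of the range of 5 primitive streak markers (13.9 to 99.2 CPM). Results on day 5 that rested on this library are given with and without it.

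KO and WT cells differed in few Wnt genes before day 3 and in many from day 3 on. On day 3, 18 members were higher in KO cells and 2 lower, on day 4 9 were higher and 3 lower, and on day 5 13 were higher and 10 lower. By limma on log2(TPM + 1) fewer passed, with 8 higher and 1 lower on day 3, 7 and 3 on day 4 and 8 and 4 on day 5. By edgeR, 2.09% of all genes tested were higher and 1.87% lower in KO cells on day 3, 3.4% and 4.28% on day 4, and 5.99% and 5.73% on day 5. The shares of all genes by limma are not given here, so the limma counts are not set against these. On day 3 the median log2 fold change was 0.58 over the 51 members tested and 0.01 over all genes. On day 5 these medians were 0.08 and -0.01, with members moving both ways. Of the 52 members, 33 passed in at least 1 of the 6 daily comparisons and 19 in none of them.

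On day 0 the Frizzled receptor gene *Fzd1* was the only member past the threshold, against 0.569% of all genes higher and 0.296% lower. It stood at 0.611 and 1.33 CPM in WT and 3.99 and 3.53 CPM in KO, without overlap (log2 fold change 1.85 ± 0.33, adjusted p = 0.00138), and the difference was 2.60 without WT replicate 2. The 7 fibroblast feeder markers summed to 81.0 to 105 CPM in KO and 99.5 to 106 CPM in WT ESCs, and their part in the *Fzd1* difference was not tested. On day 1, 0 members passed by edgeR, DESeq2 or limma, 6 had an unadjusted p under 0.05 (5 higher and 1 lower in KO), and 0.292% of all genes were higher and 0.343% lower. On day 2, 0 members passed by these tools, 10 had an unadjusted p under 0.05 (9 higher and 1 lower), and 0.417% and 0.199% of all genes were higher and lower.

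**Figure D1:**
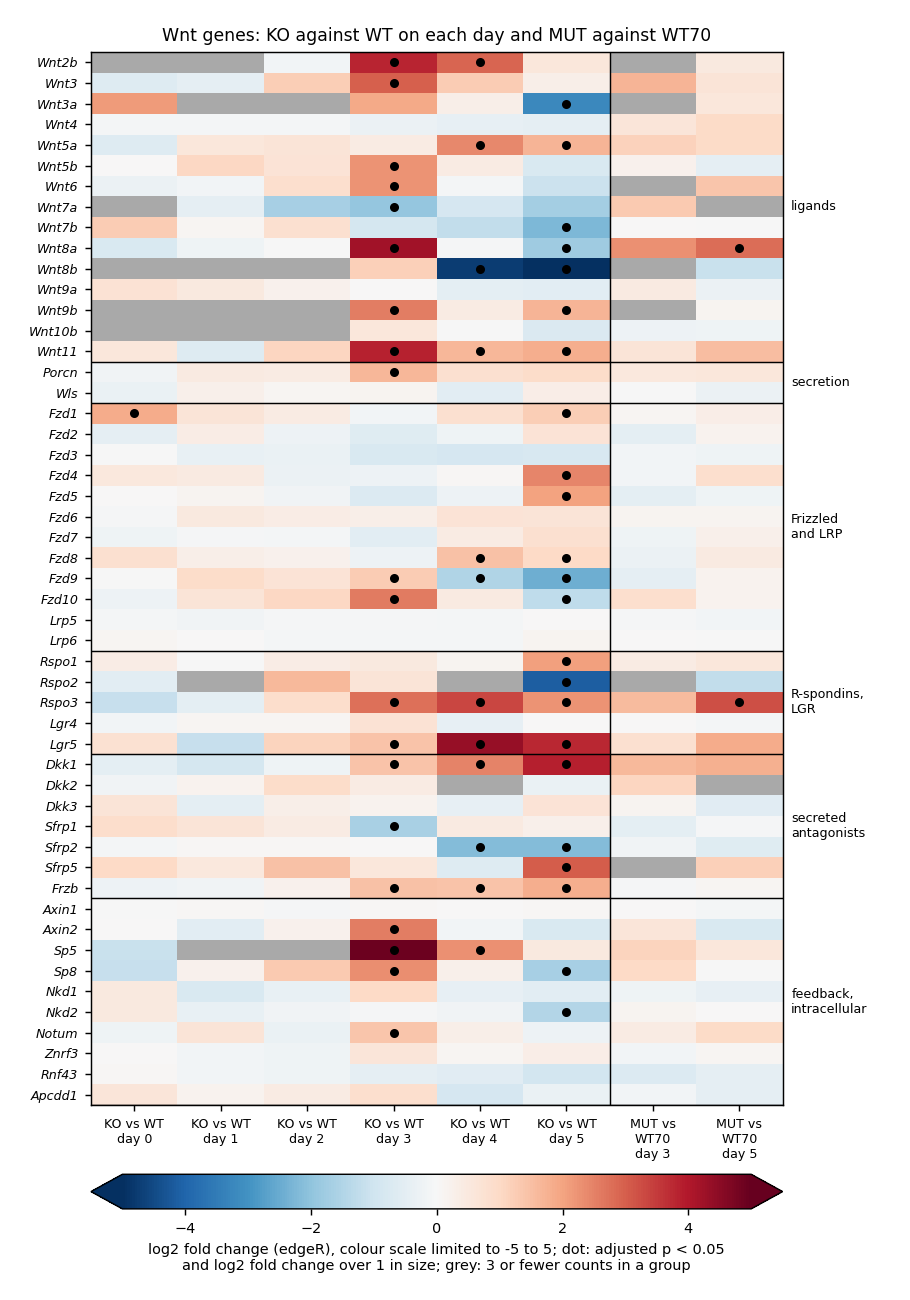
Log2 fold change of the 51 tested members (rows, by role) in KO against WT on days 0 to 5 and in MUT against WT70 on days 3 and 5 (columns). Red is higher in KO or MUT, blue is lower, black dots mark the members past the threshold, and grey cells had a group with 3 or fewer counts. The dots are few up to day 2, lie mostly on red cells on day 3 (18 of 20) and on both colours on day 5 (13 red and 10 blue).

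Bulk libraries cannot tell more cells of a type from more RNA per cell, and some other lineage markers moved with the Wnt genes. On day 3 the 6 mesoderm markers summed to 14.1 to 24.1 CPM in KO and 7.63 to 23.1 CPM in WT. The 5 neural progenitor markers summed to 312 to 424 and 410 to 559 CPM, and the groups overlapped in both lists. On day 3 all 5 primitive streak markers had counts in KO cells, and their sum was 392 to 689.9 CPM against 12.0 to 24.8 CPM in WT cells, with the 5 endoderm markers at 61.3 to 79.7 and 9.30 to 41.1 CPM. On day 5 the 6 mesoderm markers summed to 245 to 366 CPM in KO and 24.8 to 87.1 CPM in WT, the 5 endoderm markers to 227 to 311 and 10.3 to 59.6 CPM, and the 5 neural progenitor markers to 55.8 to 104 and 343 to 375 CPM. The 7 fibroblast feeder markers summed to 30.8 to 36.2 CPM in KO and 47.1 to 50.02 CPM in WT on day 3, 15.0 to 16.6 and 43.8 to 50.1 CPM on day 4, when Lum was at 0 in both, and 38.6 to 67.8 and 88.6 to 99.7 CPM on day 5, lower in KO without overlap on each day. The 6 ESC markers summed to 969 to 1155 CPM in KO and 731 to 839 CPM in WT on day 3 and to 32.2 to 100.0 and 181 to 231 CPM on day 5. All markers of these lists had counts in both groups on days 3 and 5, and their part in the results on days 3 to 5 was not tested.

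Of the 15 ligands tested, 7 were higher and 1 lower in KO cells on day 3, when the median log2 fold change of the class was 1.88. On day 4, 3 were higher and 1 lower, and on day 5 3 were higher and 4 lower (medians -0.01 and -0.71). The 16 ligand genes together amounted to 24.9 TPM (22.6 to 26.2, n = 4) in KO cells on day 3 and 6.97 TPM (5.59 to 7.91, n = 4) in WT cells, without overlap. *Wnt8a* made up 29.6% and *Wnt3* 27.4% of the KO sum, whereas *Wnt4*, a ligand of kidney and gonad development, led in WT cells with 19.6%. On day 5 the sum was 13.7 TPM (12.3 to 14.5, n = 3) in KO, and 9.52, 9.46 and 22.7 TPM in the WT libraries. The overlap of the groups rested on WT replicate 3, and the other WT libraries lay below all KO libraries. *Wnt5a* made up 45.8% of the KO sum and 13.0% of the WT sum (4.60% and 4.08% in the WT libraries other than replicate 3). The order on day 5 depended on the genes summed, since *Wnt1* is not among the 16. With *Wnt1* added, the sum was 13.8 TPM (12.4 to 14.5, n = 3) in KO and 21.2 TPM (14.2 to 34.2, n = 3) in WT.

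**Figure D2:**
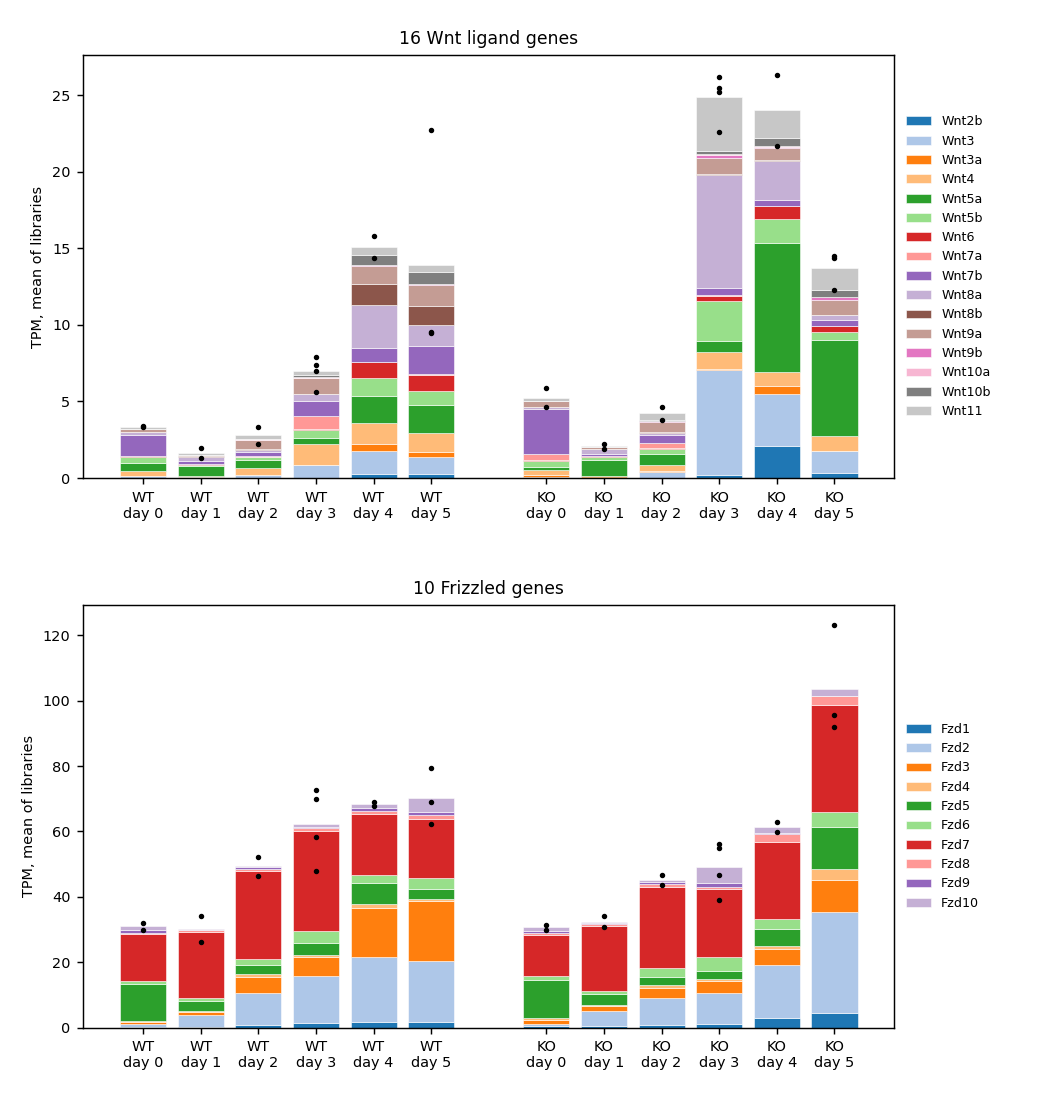
Mean TPM (vertical axes, linear) of the 16 ligand genes (upper panel) and the 10 Frizzled genes (lower panel), stacked by gene, in WT and KO cells on days 0 to 5. Black points are the sums in single libraries, and Wnt1 is not among the 16 ligand genes. The ligand sum was 24.9 TPM in KO and 6.97 TPM in WT on day 3, and the Frizzled sum 104 TPM in KO and 70.3 TPM in WT on day 5.

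*Wnt3*, the ligand needed for the primitive streak, was at 3.33, 3.38, 7.05 and 6.43 CPM in WT and 49.4, 42.6, 41.4 and 34.9 CPM in KO libraries on day 3. The lowest KO library stood above every WT library (log2 fold change 3.01 ± 0.33, adjusted p = 3.85e-07). On day 5 *Wnt3* was at 7.57, 7.19 and 6.74 CPM in WT and 11.6, 13.4 and 1.87 CPM in KO, and the KO library of experiment 2 lay below all WT libraries while the other two lay above (0.31 ± 0.38, adjusted p = 0.611). *Wnt8a*, another ligand of the streak, was at 0.902, 0.575, 2.93 and 1.74 CPM in WT and 20.8, 21.0, 28.7 and 27.2 CPM in KO on day 3. Again no libraries overlapped (4.22 ± 0.41, adjusted p = 4.88e-08). On day 4 *Wnt8a* had reached 7.50 and 10.1 CPM in WT cells and was at 6.63 and 10.4 CPM in KO cells, so that the groups overlapped (-0.05 ± 0.49, adjusted p = 0.984).

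On day 5 *Wnt8a* was at 0.833, 1.16 and 11.0 CPM in WT and 0.598, 1.24 and 0.843 CPM in KO. The single high library was WT replicate 3, and the pass in this comparison (-1.78 ± 0.52, adjusted p = 0.0106) rested on it. The log2 fold change was -0.30 (adjusted p = 0.686) without that library, -1.24 (adjusted p = 0.131) without replicate 3 of KO, -2.40 without replicate 2 of KO, -0.08 in experiment 1 alone and -3.69 in experiment 2 alone.

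*Wnt11*, a ligand known for beta-catenin-independent signalling in cell movement, was at 0.694, 0.575, 0.976 and 1.18 CPM in WT and 12.3, 12.8, 13.1 and 11.7 CPM in KO on day 3. The KO libraries lay close together and far above WT (3.85 ± 0.32, adjusted p = 4.64e-09). On day 4 *Wnt11* was at 1.56 and 1.97 CPM in WT and 6.63 and 4.68 CPM in KO, still without overlap (1.68 ± 0.43, adjusted p = 0.00660), but the pass was lost without KO replicate 1 (adjusted p = 0.0836) or WT replicate 1 (adjusted p = 0.0834). On day 5 it was at 0.984, 1.00 and 2.50 CPM in WT and 5.85, 5.21 and 4.40 CPM in KO, with the lowest KO value above the highest WT value (1.84 ± 0.36, adjusted p = 0.000258). *Wnt5b*, a close relative of *Wnt5a*, was at 2.01, 2.01, 3.30 and 2.48 CPM in WT and 14.4, 11.6, 10.5 and 9.03 CPM in KO on day 3. All 4 KO libraries were higher than WT (2.24 ± 0.23, adjusted p = 8.74e-08), whereas on days 4 and 5 the log2 fold changes were 0.41 ± 0.31 and -0.76 ± 0.27, short of the threshold.

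*Wnt2b*, a ligand of the canonical pathway, reached higher levels in KO cells on day 4 than on day 3, though its log2 fold change was larger on day 3. On day 4 it was at 1.93 and 1.83 CPM in WT and 13.6 and 14.5 CPM in KO, far apart (2.90 ± 0.56, adjusted p = 0.000519). It had already passed on day 3, at no more than 1.69 CPM (3.82 ± 0.59, adjusted p = 4.9e-05, and 4.47 without WT replicate 2), and on day 5 the libraries overlapped (0.58 ± 0.48, adjusted p = 0.416). *Wnt5a*, the main beta-catenin-independent ligand of mesoderm and limb outgrowth, did not pass on day 3 (0.42 ± 0.31, adjusted p = 0.448). On day 4 it was at 9.28 and 5.14 CPM in WT and 34.7 and 40.7 CPM in KO, with a clear gap between the groups (2.39 ± 0.38, adjusted p = 5.02e-05). On day 5 *Wnt5a* was at 4.16, 5.72 and 20.8 CPM in WT and 26.3, 27.6 and 37.2 CPM in KO, and WT replicate 3 came closest to the KO libraries (1.71 ± 0.31, adjusted p = 9.16e-05). Without that library the difference was 2.54.

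In contrast, 2 ligands of the developing brain were lower in KO cells. *Wnt8b*, which is expressed in the forebrain, was at 6.68 and 3.38 CPM in WT and 0.274 and 0.0767 CPM in KO on day 4. The KO libraries remained close to 0 (-4.74 ± 0.78, adjusted p = 8.62e-05), and with so few counts the value ran from -5.89 to -4.14 without 1 of them. On day 5 *Wnt8b* was at 5.53, 4.94 and 13.5 CPM in WT and 0.332, 0.118 and 0 CPM in KO, again without overlap (-5.38 ± 0.64, adjusted p = 4.53e-07, with -6.61 without KO replicate 1 and -4.60 without KO replicate 3). *Wnt7b*, a ligand of the neural tube and its vessels, was at 9.99, 10.4 and 16.7 CPM in WT and 4.05, 2.61 and 1.12 CPM in KO on day 5, and every KO library was below every WT library (-2.25 ± 0.41, adjusted p = 0.000127). *Wnt7b* was present in ESCs as well, at 10.9 and 7.19 CPM in WT and 28.0 and 15.0 CPM in KO on day 0, where the difference did not pass (1.27 ± 0.45, adjusted p = 0.135).

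The other ligands past the threshold had means below 5 CPM. *Wnt6* (2.24 ± 0.50) and *Wnt9b* (2.57 ± 0.53) were higher and *Wnt7a* (-1.94 ± 0.63) was lower in KO cells on day 3, and on day 5 *Wnt9b* was higher (1.69 ± 0.60) and *Wnt3a* lower (-3.23 ± 0.85). The *Wnt7a* difference on day 3 lost its pass without any of 6 libraries (lowest adjusted p 0.0574). The *Wnt9b* difference on day 5 was lost without any of 4 libraries, and that of *Wnt3a* without replicate 3 of KO (adjusted p = 0.0520) or of WT (adjusted p = 0.0643). *Wnt4*, *Wnt9a* and *Wnt10b* passed on no day.

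Over time in WT cells, 6 ligands rose from day 0 to day 3 and 7 from day 3 to day 5. From day 0 to day 3 the ligands with the smallest p were *Wnt4* (2.17 ± 0.30), *Wnt9a* (1.51 ± 0.31), *Wnt3* (3.09 ± 0.64) and *Wnt10b*, whose CPM ratio was 9.60-fold, with an exact 95% interval of 2.52 to 81.4 from 2 counts on day 0. From day 3 to day 5 they were *Wnt8b* (6.77 ± 0.63), *Wnt6* (3.90 ± 0.50), *Wnt10b* (2.28 ± 0.33) and *Wnt2b* (3.96 ± 0.62). In KO cells 9 ligands rose and 1 fell from day 0 to day 3, and those with the smallest p were *Wnt3* (6.76 ± 0.64), *Wnt11* (3.75 ± 0.45), *Wnt8a* (5.25 ± 0.66) and *Wnt5b* (2.48 ± 0.31). From day 3 to day 5 *Wnt5a* rose in KO cells (3.24 ± 0.30), and 4 ligands fell, among them *Wnt8a* (-4.51 ± 0.48), *Wnt5b* (-2.16 ± 0.25) and *Wnt3* (-2.27 ± 0.36). Of the other ligands counted, the WT rise up to day 3 did not pass for *Wnt7a* without WT replicate 1 of day 0 (adjusted p = 0.106) or for *Wnt9b* without WT replicate 2 of day 0 (adjusted p = 0.0576). Without WT replicate 3 of day 5 the WT rise after day 3 did not pass for *Wnt3a* (adjusted p = 0.0538), and the value for *Wnt8a* was -0.16 (adjusted p = 0.808). In KO cells the rise of *Wnt6* up to day 3 did not pass without KO replicate 1 of day 0 (adjusted p = 0.150) or of day 3 (adjusted p = 0.0719), and the fall of *Wnt11* after day 3 was under the threshold in size, at -0.91, without KO replicate 3 of day 5. The values for *Wnt3* ran from 6.11 to 8.09 up to day 3 in KO cells without KO replicate 2 or 1 of day 0 and came to -1.65 after day 3 without KO replicate 3 of day 5, the WT rise after day 3 was 3.08 for *Wnt2b* and 5.98 for *Wnt8b* without WT replicate 3 of day 5 and 4.61 for *Wnt2b* without WT replicate 2 and 7.61 for *Wnt8b* without WT replicate 3 of day 3, and the change of *Wnt8a* in KO cells was -5.15 without KO replicate 2 of day 5.

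**Figure D3:**
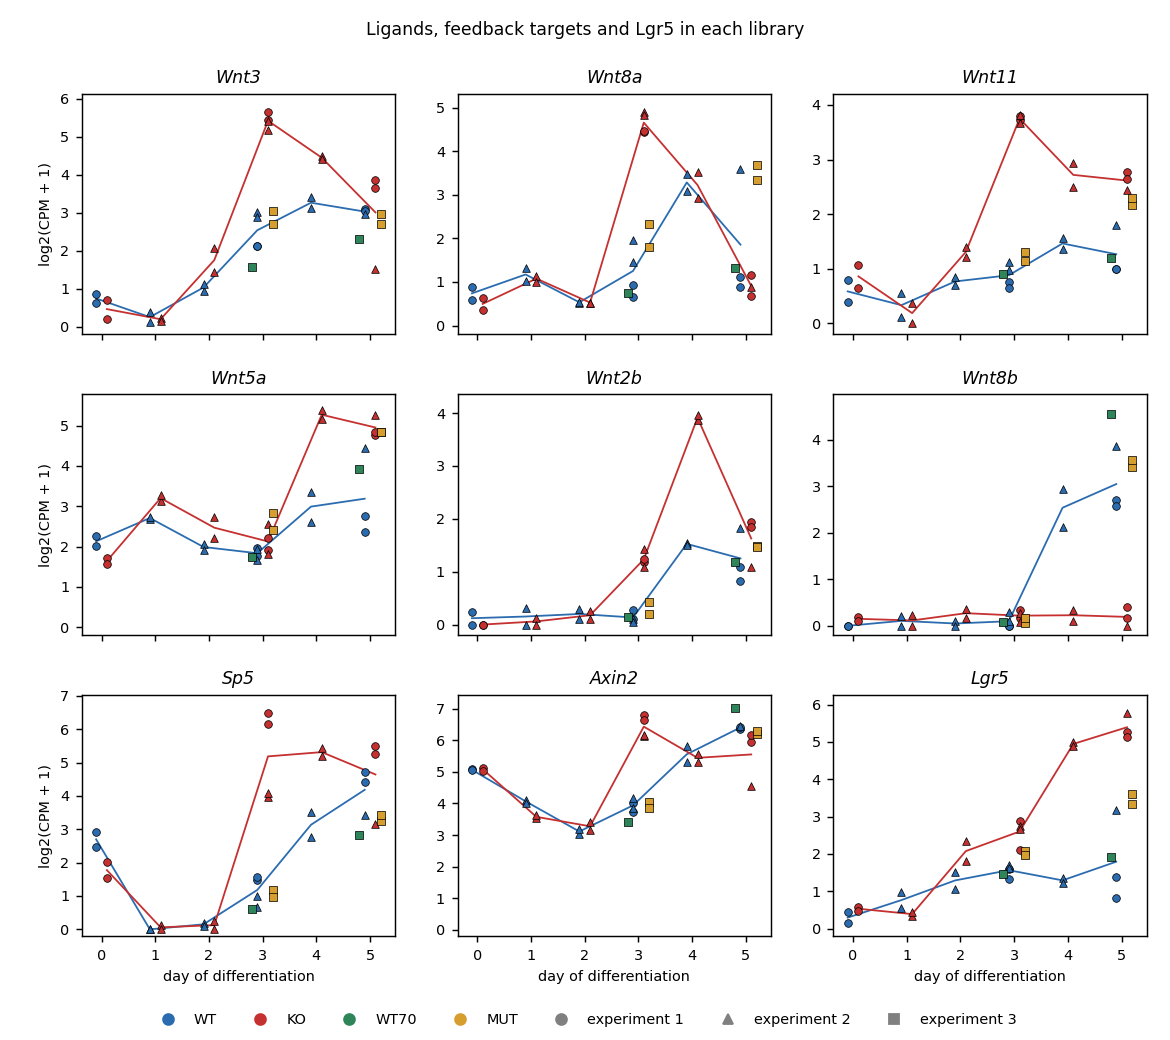
Level of 6 ligands, the feedback targets Sp5 and Axin2 and the receptor gene Lgr5 in every library, as log2(CPM + 1), against the day of differentiation. Colours give the group, shapes the experiment, and lines join the mean values of WT and KO. Wnt3, Wnt8a, Wnt11 and Axin2 were highest in KO cells on day 3, and Sp5 was above WT in KO cells on days 3 and 4. Wnt2b and Wnt5a differed most on day 4 on this scale, Wnt8b remained near 0 in KO cells, and Lgr5 remained high in KO cells to day 5.

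Several ligand genes lie side by side in the genome (GENCODE M21, GRCm38), and neighbours did not always share their pattern. *Wnt3* (chr11:103774150-103817957, plus strand) and *Wnt9b* (chr11:103727364-103749821, minus strand) were 24.3 kb apart and diverge from the space between them. Both were higher in KO cells on day 3, by 3.01 ± 0.33 and 2.57 ± 0.53, at mean TPM values of 6.82 and 0.178. *Wnt3a* and *Wnt9a*, 16.2 kb apart on chr11, had log2 fold changes of -3.23 ± 0.85 and -0.53 ± 0.24 on day 5, of which the first passed. *Wnt1* and *Wnt10b*, 11.7 kb apart on chr15, had -6.74 ± 0.35 and -0.71 ± 0.33 on day 5, and again the first passed. *Wnt6* lies 6.19 kb from *Wnt10a* on chr1, and *Wnt10a* was not tested.

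*Porcn*, the acyltransferase that attaches the lipid to Wnt ligands, was at 1.32, 1.58, 1.95 and 2.62 CPM in WT and 6.36, 6.02, 6.57 and 5.07 CPM in KO on day 3. The lowest KO library was above the highest WT library (1.66 ± 0.27, adjusted p = 7.92e-05), and on days 4 and 5 the log2 fold changes were 0.81 ± 0.34 and 0.93 ± 0.27, below the threshold in size. Before that *Porcn* had fallen from day 0 to day 3 in both genotypes, by 4.19 ± 0.31 on the log2 scale in WT and by 2.35 ± 0.29 in KO cells. *Wls*, the carrier that takes the ligands to the cell surface, rose through the protocol in both, by 2.23 ± 0.11 in WT and 2.69 ± 0.11 in KO cells up to day 3 and by 2.30 ± 0.08 and 2.49 ± 0.08 from day 3 to day 5. It did not pass in KO against WT on any day.

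Among the 12 Frizzled and LRP genes the differences came mainly on day 5, when 4 were higher and 2 lower in KO cells, against 2 higher on day 3 and 1 in each direction on day 4. The 10 Frizzled genes summed to 49.2 TPM (39.1 to 56.2, n = 4) in KO and 62.2 TPM (48.0 to 72.8, n = 4) in WT cells on day 3, and to 104 TPM (91.9 to 123, n = 3) and 70.3 TPM (62.4 to 79.6, n = 3) on day 5, when the libraries did not overlap. *Fzd7*, a receptor of stem cells and the early embryo, was the most abundant Frizzled gene in both genotypes from day 0 to day 3, with 49.2% of the WT sum and 42.3% of the KO sum on day 3. Its own differences were -0.54 ± 0.11 on day 3 and 0.80 ± 0.13 on day 5, both within the threshold in size.

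*Fzd5*, a receptor known from the eye field and the yolk sac, was at 52.4, 50.1 and 33.7 CPM in WT and 179, 155 and 217 CPM in KO on day 5. Every KO library was far above every WT library (2.02 ± 0.13, adjusted p = 1.76e-11). This reversed the order on day 3, when *Fzd5* was at 56.3, 53.6, 48.7 and 47.4 CPM in WT and 31.4, 32.5, 33.2 and 31.4 CPM in KO and the KO libraries were the lower ones (-0.68 ± 0.11, adjusted p = 0.000126, short of the threshold in size). *Fzd4*, a receptor of vascular development, was at 5.53, 7.49 and 12.5 CPM in WT and 42.6, 42.1 and 48.6 CPM in KO on day 5, with no overlap (2.43 ± 0.14, adjusted p = 1.98e-12). Up to day 4 it had differed by no more than 0.52 in size, and none of these comparisons passed.

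*Fzd1* was at 15.2, 14.7 and 20.7 CPM in WT and 36.8, 37.8 and 43.8 CPM in KO on day 5, with no overlap (1.22 ± 0.17, adjusted p = 3.53e-06). *Fzd8*, a receptor of the anterior embryo, was at 13.2 and 11.3 CPM in WT and 36.7 and 31.5 CPM in KO on day 4, with KO above WT (1.48 ± 0.24, adjusted p = 7.67e-05). On day 5 *Fzd8* was at 17.5, 16.4 and 17.8 CPM in WT and 27.3, 28.6 and 48.1 CPM in KO, and replicate 3 of KO was the highest (1.01 ± 0.19, adjusted p = 0.000236). Without that library the difference was 0.61 (adjusted p = 0.00513), and without WT replicate 2 it was 0.97 (adjusted p = 0.00184).

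*Fzd10*, which marks the posterior streak and later the dorsal neural tube, changed sides. On day 3 it was at 6.17, 5.75, 4.13 and 4.62 CPM in WT and 50.3, 45.4, 19.7 and 19.8 CPM in KO, with experiment 1 the higher of the 2 experiments in KO cells and all 4 KO libraries above WT (2.59 ± 0.24, adjusted p = 1.75e-08). On day 5 it was at 32.2, 32.6 and 25.1 CPM in WT and 15.4, 21.0 and 4.31 CPM in KO, with every KO library below WT (-1.28 ± 0.26, adjusted p = 0.000330). The day 5 difference was under the threshold in size without KO replicate 3, at -0.95 (adjusted p = 0.00460), and KO levels decreased by 1.00 on the log2 scale against WT (adjusted p = 0.00407), just short of it, without WT replicate 3.

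*Fzd9*, a receptor of neural progenitors, was at 1.39, 1.37, 3.30 and 2.77 CPM in WT and 6.23, 6.42, 4.17 and 3.88 CPM in KO on day 3. The groups were separate, but the gap was wide only in experiment 1 (1.27 ± 0.29, adjusted p = 0.00282, with 2.19 in experiment 1 and 0.44 in experiment 2 alone). It then fell in KO cells to 1.16 and 1.15 CPM on day 4, below the WT libraries at 3.56 and 3.10 CPM (-1.52 ± 0.44, adjusted p = 0.0183, a pass lost without any 1 of the 4 libraries). On day 5 *Fzd9* was at 3.86, 3.01 and 6.27 CPM in WT and 0.532, 1.18 and 0.562 CPM in KO, without overlap (-2.44 ± 0.38, adjusted p = 1.54e-05).

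*Fzd2*, *Fzd3* and *Fzd6* and the co-receptors *Lrp5* and *Lrp6* passed in KO against WT on no day, and the first 3 of these changed with time in both genotypes. *Fzd2*, which was the second Frizzled gene by TPM on day 3, rose from day 0 to day 3 in WT (3.64 ± 0.22) and KO cells (3.48 ± 0.22), as did *Fzd3* (1.88 ± 0.13 and 1.14 ± 0.13) and *Fzd6* (2.26 ± 0.18 and 2.63 ± 0.18). *Fzd3*, a receptor of axon guidance, rose again from day 3 to day 5 in WT (1.65 ± 0.09) and KO cells (1.59 ± 0.09). *Fzd5* fell from day 0 to day 3 by 1.77 ± 0.14 in WT and by 2.48 ± 0.14 in KO cells, and from day 3 to day 5 it rose in KO cells by 2.50 ± 0.12, together with *Fzd4* (2.45 ± 0.13) and *Fzd2* (1.71 ± 0.14). In WT cells *Fzd10* (2.39 ± 0.25) and *Fzd9* (1.03 ± 0.31) rose from day 3 to day 5. The *Fzd9* pass was lost without WT replicate 1 of day 3 (log2 fold change 0.88), WT replicate 2 of day 3 (0.86) or WT replicate 3 of day 5 (0.67), and in a fit blocked by cell line (replicate block) it was at 0.96. The pass of *Fzd3* in KO cells up to day 3 was lost without KO replicate 1 of day 0 (1.00).

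Of the 5 R-spondins and their receptors, *Rspo3* and *Lgr5* were higher in KO cells on days 3, 4 and 5, *Rspo1* was higher and *Rspo2* lower on day 5, and *Lgr4* passed on no day. *Rspo3*, the R-spondin of mesoderm and vessels, was at 4.38 and 3.80 CPM in WT and 37.7 and 46.0 CPM in KO on day 4, with both KO libraries far above WT (3.35 ± 0.54, adjusted p = 6.72e-05). On day 3 it had stood at 0.416, 0.288, 0.675 and 0.665 CPM in WT and 2.91, 3.27, 3.99 and 3.50 CPM in KO, without overlap (2.74 ± 0.50, adjusted p = 0.000304). On day 5 *Rspo3* was at 1.97, 1.16 and 11.1 CPM in WT and 18.3, 25.9 and 10.7 CPM in KO, and WT replicate 3 lay just above KO replicate 3 (2.26 ± 0.46, adjusted p = 0.000391). The difference on day 5 was 3.83 in experiment 1 and -0.05 in experiment 2, which had 1 library a group, and 3.59 without WT replicate 3 and 3.00 without KO replicate 3.

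*Lgr5*, an R-spondin receptor and a target of the pathway in stem cells, was at 2.01, 1.51, 2.25 and 2.11 CPM in WT and 6.43, 3.27, 5.69 and 5.36 CPM in KO on day 3. The lowest KO library lay above the highest WT library (1.43 ± 0.34, adjusted p = 0.00386). On day 4 *Lgr5* was at 1.56 and 1.34 CPM in WT and 31.2 and 28.5 CPM in KO, with a wide gap (4.36 ± 0.49, adjusted p = 4.75e-07). On day 5 it was at 1.59, 0.773 and 8.03 CPM in WT and 37.7, 34.2 and 53.5 CPM in KO, with WT replicate 3 the highest of its group and still far below KO (3.75 ± 0.37, adjusted p = 1.99e-08, and 5.01 without that library). *Rspo1* was at 2.27, 2.86 and 3.78 CPM in WT and 7.18, 8.12 and 24.3 CPM in KO on day 5, with KO replicate 3 well above the other libraries and no overlap (2.04 ± 0.27, adjusted p = 1.36e-06). *Rspo2*, an R-spondin of limb and lung development, was at 3.71, 3.48 and 9.10 CPM in WT and 0.399, 0.355 and 0.0937 CPM in KO on day 5. It had risen only in WT cells (4.54 ± 0.48 from day 3 to day 5), and no KO library exceeded 0.399 CPM (-4.11 ± 0.53, adjusted p = 1.27e-06, and -3.36 without WT replicate 3). The WT rise was 3.55 without that library.

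With time, *Rspo1* rose from day 0 to day 3 in WT (1.45 ± 0.31) and KO cells (1.57 ± 0.30) and fell again in WT cells from day 3 to day 5, by 1.53 ± 0.26, the one member that fell there. *Lgr5* rose from day 0 to day 3 in both genotypes (2.44 ± 0.72 in WT and 3.12 ± 0.59 in KO) and from day 3 to day 5 in KO cells (3.12 ± 0.32). The pass of *Lgr5* in WT cells was lost without WT replicate 1 of day 0 (adjusted p = 0.0730) and the value was 3.71 without WT replicate 2. *Rspo3* rose from day 0 to day 3 in KO cells (2.67 ± 0.75, a pass lost without KO replicate 1 of day 0, adjusted p = 0.0744). From day 3 to day 5 it rose in WT (3.15 ± 0.52) and KO cells (2.67 ± 0.41), by 1.51 and 3.37 without the replicate 3 of each on day 5.

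The 7 secreted antagonists summed to 60.0 TPM (52.4 to 72.6, n = 3) in WT and 84.6 TPM (81.3 to 90.9, n = 3) in KO cells on day 5, without overlap, and different genes made up the sums. *Sfrp2* led in WT cells with 42.0%, and *Frzb* led in KO cells with 42.5%. Against WT, 2 antagonists were higher and 1 lower on day 3, 2 higher and 1 lower on day 4, and 3 higher and 1 lower on day 5. *Dkk2* and *Dkk3*, relatives of *Dkk1*, passed on no day.

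*Dkk1*, which blocks the LRP co-receptors and is itself a target of the pathway, was at 1.89, 2.09 and 9.10 CPM in WT and 70.1, 59.4 and 45.2 CPM in KO on day 5. The lowest KO library was far above the highest WT library, which was replicate 3 (3.88 ± 0.44, adjusted p = 1.41e-07, and 4.92 without that library). On day 4 *Dkk1* was at 2.67 and 3.94 CPM in WT and 18.1 and 18.8 CPM in KO, without overlap (2.47 ± 0.52, adjusted p = 0.00122). On day 3 it was at 0.486, 0.288, 1.05 and 1.63 CPM in WT and 2.78, 3.14, 1.59 and 2.24 CPM in KO, and the libraries of experiment 2 overlapped (1.44 ± 0.47, adjusted p = 0.0354). That pass was lost without any of 5 libraries, and the difference was 2.91 in experiment 1 and 0.50 in experiment 2 alone.

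*Frzb*, a soluble Frizzled-like ligand trap also called sFRP3, was at 2.15, 2.73, 4.05 and 3.10 CPM in WT and 7.49, 8.51, 6.99 and 9.54 CPM in KO on day 3, with every KO library above WT (1.46 ± 0.19, adjusted p = 3.47e-06). On day 4 it was at 34.7 and 25.6 CPM in WT and 76.7 and 83.9 CPM in KO, again without overlap (1.42 ± 0.21, adjusted p = 1.55e-05). On day 5 *Frzb* was at 29.6, 38.6 and 45.6 CPM in WT and 126, 119 and 160.1 CPM in KO, and KO was highest in replicate 3 (1.83 ± 0.17, adjusted p = 4.86e-09). *Sfrp5*, another trap of this family, was at 0.151, 0.386 and 0.809 CPM in WT and 4.32, 3.08 and 3.75 CPM in KO on day 5, low but without overlap (3.04 ± 0.48, adjusted p = 1.91e-05, and 3.80 without WT replicate 3).

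*Sfrp1* and *Sfrp2* went the other way at different times. *Sfrp1* was at 52.3, 54.6, 43.9 and 43.1 CPM in WT and 15.0, 16.9, 12.1 and 18.7 CPM in KO on day 3, with each KO library below each WT library (-1.61 ± 0.11, adjusted p = 2.76e-10). By day 4 it had risen to 144 and 159 CPM in WT and 203 and 211 CPM in KO (0.45 ± 0.14, adjusted p = 0.0304, under the threshold in size). *Sfrp2* did not pass on day 3, at 20.7, 22.2, 23.3 and 22.1 CPM in WT and 21.3, 23.7, 24.0 and 20.4 CPM in KO (0.02 ± 0.09, adjusted p = 0.952). On day 4 it was at 38.2 and 37.7 CPM in WT and 7.32 and 9.67 CPM in KO, a clean separation (-2.16 ± 0.13, adjusted p = 3.86e-11). On day 5 *Sfrp2* was at 46.0, 45.2 and 52.3 CPM in WT and 8.44, 11.0 and 12.3 CPM in KO, again without overlap (-2.18 ± 0.11, adjusted p = 1.73e-13).

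In WT cells *Sfrp2* and *Frzb* rose from day 0 to day 3 (1.72 ± 0.13 and 3.50 ± 0.50) and again to day 5 (1.14 ± 0.09 and 3.72 ± 0.19), with *Sfrp1* (2.06 ± 0.11) and *Dkk1* (2.26 ± 0.47) rising from day 3 to day 5, while *Dkk3* (-1.47 ± 0.26) and *Dkk2* (-2.95 ± 0.70) fell from day 0 to day 3. In KO cells *Sfrp1* first fell, by 2.42 ± 0.14 up to day 3, and then rose by 3.91 ± 0.12. *Frzb* (4.09 ± 0.17) and *Dkk1* (4.69 ± 0.40) rose and *Sfrp2* fell (-1.07 ± 0.10) in KO cells from day 3 to day 5. The *Dkk1* rise in WT cells came to 1.00 (adjusted p = 0.108) without WT replicate 3 of day 5, the *Sfrp2* fall in KO cells was under the threshold in size without KO replicate 1 of day 5 (-0.94) or, by a margin under the second decimal, KO replicate 2 of day 3, and without WT replicate 2 the changes up to day 3 were 4.56 for *Frzb* (day 0 library left out) and -3.66 for *Dkk2* (day 3 library left out).

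**Figure D4:**
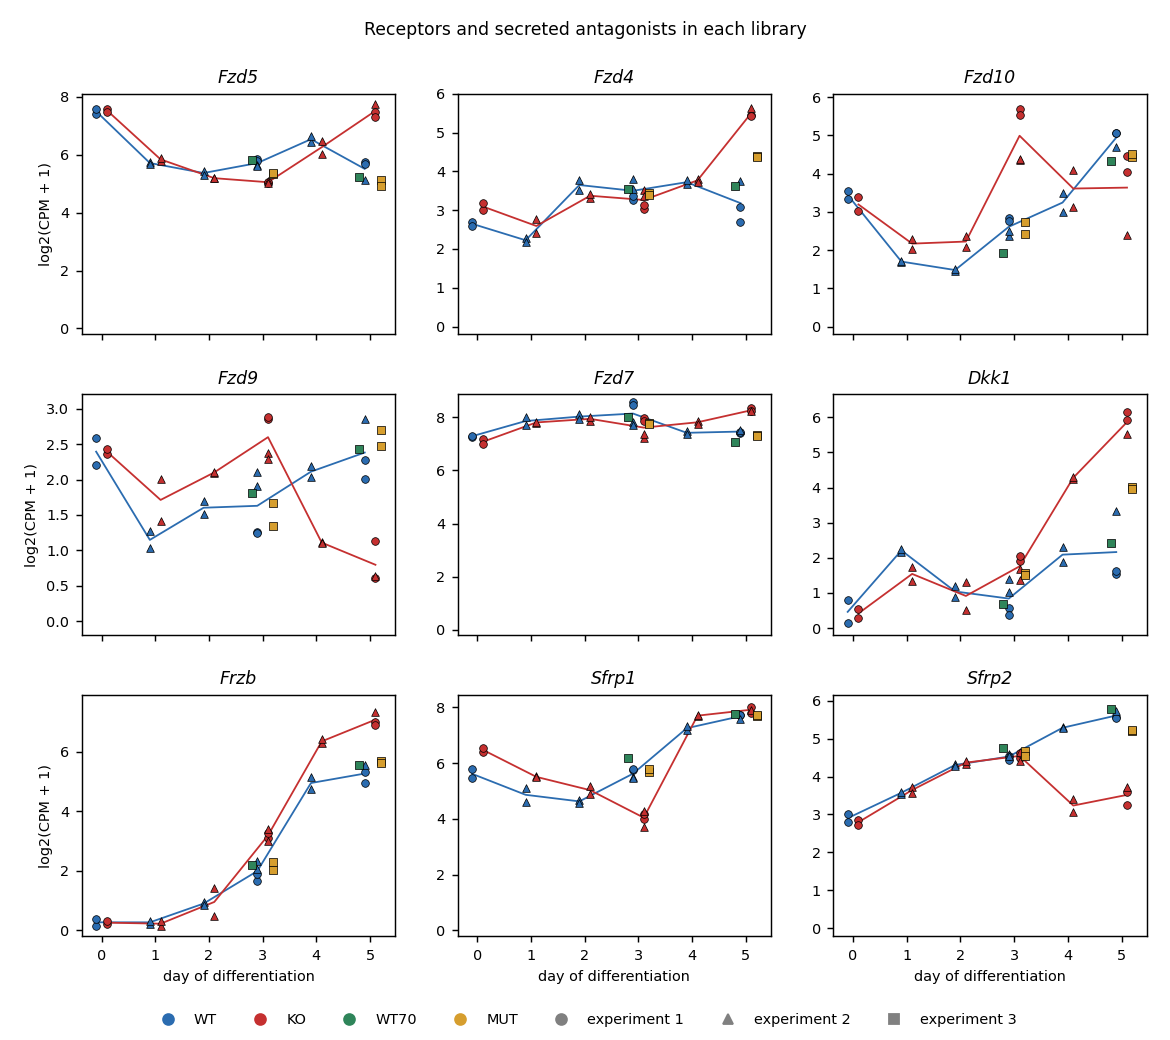
Level of 5 Frizzled genes and 4 secreted antagonists in every library, as log2(CPM + 1), against the day of differentiation, with colours for the group, shapes for the experiment and lines through the mean values of WT and KO. Fzd5, Fzd4, Dkk1 and Frzb ended highest in KO cells on day 5, Fzd10 and Fzd9 crossed from above to below WT after day 3, Sfrp1 dipped in KO cells on day 3, and Sfrp2 parted from WT on day 4.

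Of the 10 feedback targets and intracellular regulators, *Axin2*, *Sp5*, *Sp8* and *Notum* were higher in KO cells on day 3, *Sp5* alone was higher on day 4, and *Sp8* and *Nkd2* were lower on day 5. *Axin2*, a scaffold of the destruction complex and the usual reporter of canonical signalling, was at 15.1, 12.2, 17.0 and 13.4 CPM in WT and 109, 98.2, 69.2 and 71.6 CPM in KO on day 3. Each KO library had at least 4 times the level of any WT library (2.55 ± 0.20, adjusted p = 1.12e-09). By day 5 *Axin2* had risen in WT cells to 80.3, 84.5 and 87.0 CPM, above the KO libraries at 60.7, 70.7 and 22.4 CPM, of which replicate 3 was the lowest (-0.78 ± 0.21, adjusted p = 0.00576, under the threshold in size).

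*Sp5*, a zinc finger gene that responds directly to beta-catenin, was at 1.80, 1.94, 0.60 and 0.997 CPM in WT and 89.0, 71.0, 14.8 and 16.2 CPM in KO on day 3. It was far above WT in both experiments, and higher in experiment 1 than in experiment 2 (4.90 ± 0.28, adjusted p = 1.57e-11). On day 4 *Sp5* was at 10.4 and 5.77 CPM in WT and 35.4 and 42.5 CPM in KO, without overlap (2.27 ± 0.32, adjusted p = 1.17e-05). On day 5 it was at 25.1, 20.5 and 9.71 CPM in WT and 37.4, 44.4 and 7.96 CPM in KO, and the groups overlapped, with both libraries of experiment 2 low (0.51 ± 0.25, adjusted p = 0.139). *Sp8*, a related factor of the limb ridge and forebrain, was at 5.76, 4.67, 10.9 and 7.83 CPM in WT and 44.5, 40.1, 28.1 and 26.7 CPM in KO on day 3, with KO above WT throughout (2.33 ± 0.29, adjusted p = 1.72e-06). On day 5 *Sp8* was at 16.3, 18.2 and 56.4 CPM in WT and 8.51, 10.1 and 7.96 CPM in KO, with KO below WT (-1.66 ± 0.33, adjusted p = 0.000288). Without WT replicate 3, the highest library, that difference was -0.91 (adjusted p = 0.00811), under the threshold in size.

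*Nkd2*, an inhibitor that binds Dishevelled, was at 6.13, 7.49 and 5.06 CPM in WT and 2.26, 2.55 and 1.97 CPM in KO on day 5. All KO libraries lay below WT (-1.45 ± 0.21, adjusted p = 5.46e-06), after overlap on day 3 (-0.05 ± 0.16, adjusted p = 0.912). *Notum*, the secreted enzyme that strips the lipid from Wnt ligands, reached no more than 2.11 CPM in KO cells on day 3, above all WT libraries (1.38 ± 0.31, adjusted p = 0.00253). *Axin1*, *Nkd1*, *Apcdd1* and the receptor ubiquitin ligases *Znrf3* and *Rnf43* passed on no day. *Nkd1* came closest, with 0.98 ± 0.20 on day 3.

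The feedback genes also followed the protocol. In WT cells *Notum* (-3.99 ± 0.36) and *Sp5* (-1.23 ± 0.36) fell and *Rnf43* (1.94 ± 0.31) and *Sp8* (3.02 ± 0.58) rose from day 0 to day 3, and *Nkd1* (2.74 ± 0.21), *Axin2* (2.47 ± 0.21), *Sp5* (3.51 ± 0.29) and *Apcdd1* (3.10 ± 0.27) rose from day 3 to day 5. In KO cells *Sp5* (4.80 ± 0.36), *Sp8* (6.52 ± 0.60) and *Axin2* (1.57 ± 0.25) rose and *Notum* fell (-2.39 ± 0.34) up to day 3. From day 3 to day 5 *Apcdd1* (1.92 ± 0.26) and *Nkd1* (1.21 ± 0.20) rose and *Nkd2* (-1.47 ± 0.20) and *Sp8* (-1.92 ± 0.31) fell in KO cells. The *Sp5* fall in WT cells was lost without WT replicate 1 of day 0 (-0.99 (adjusted p = 0.0787)), and the *Apcdd1* rise in WT cells was 2.35 without WT replicate 3 of day 5.

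Since *Axin2*, *Sp5* and several ligands were higher together in KO cells on day 3, promoters were read for the letters CTTTGAA or CTTTGAT, the core to which TCF/LEF factors bind, on both strands. The windows ran from 250 bases before to 50 bases after each start in RefSeq on GRCm38.p6, and 32 of the 52 members had one. A match was found in 5 of the 13 members with a window that were higher in KO cells on day 3 and in 0 of the other 19, and 9.88% of all 27025 genes with a window had one. These shares are a description with no test, and a match is not a bound site. A gene counted as matched where any of its windows held a match. *Wnt11*, *Wnt5b* and *Sp8* had further windows at other starts, none of which held a match. For *Wnt5b* (chr6:119544298-119544597) and *Sp8* (chr12:118846079-118846378) these include the window at the annotated 5′ end of the gene. The 5 windows are printed 5′ to 3′ on the strand of the gene with the match in capitals: *Sp5* (chr2:70474673-70474972, plus strand), with CTTTGAT whose first letter is 104 bases before the start, *Wnt11* (chr7:98834862-98835161, plus strand), with ATCAAAG, the reverse strand of CTTTGAT, at 51 bases, *Wnt5b* (chr6:119449337-119449636, minus strand), with CTTTGAT at 71 bases, *Sp8* (chr12:118846983-118847282, plus strand), with TTCAAAG, the reverse strand of CTTTGAA, at 51 bases, and *Dkk1* (chr19:30549447-30549746, minus strand), with CTTTGAA at 117 bases.
Sp5: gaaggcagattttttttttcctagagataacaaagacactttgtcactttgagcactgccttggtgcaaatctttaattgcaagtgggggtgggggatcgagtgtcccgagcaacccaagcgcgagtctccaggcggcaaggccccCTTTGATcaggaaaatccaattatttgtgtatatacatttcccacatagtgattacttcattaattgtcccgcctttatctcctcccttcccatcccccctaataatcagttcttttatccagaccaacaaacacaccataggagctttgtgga
Wnt11: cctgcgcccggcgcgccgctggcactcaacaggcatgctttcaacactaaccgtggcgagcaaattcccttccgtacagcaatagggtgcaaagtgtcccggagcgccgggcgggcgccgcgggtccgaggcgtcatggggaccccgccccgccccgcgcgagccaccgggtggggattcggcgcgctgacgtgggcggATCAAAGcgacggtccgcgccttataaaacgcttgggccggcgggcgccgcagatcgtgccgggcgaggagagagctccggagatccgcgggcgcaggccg
Wnt5b: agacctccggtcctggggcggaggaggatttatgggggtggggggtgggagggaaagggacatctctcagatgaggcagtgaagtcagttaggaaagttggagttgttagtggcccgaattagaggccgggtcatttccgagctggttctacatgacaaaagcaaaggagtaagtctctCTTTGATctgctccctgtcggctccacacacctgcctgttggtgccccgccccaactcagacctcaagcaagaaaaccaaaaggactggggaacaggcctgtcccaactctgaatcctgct
Sp8: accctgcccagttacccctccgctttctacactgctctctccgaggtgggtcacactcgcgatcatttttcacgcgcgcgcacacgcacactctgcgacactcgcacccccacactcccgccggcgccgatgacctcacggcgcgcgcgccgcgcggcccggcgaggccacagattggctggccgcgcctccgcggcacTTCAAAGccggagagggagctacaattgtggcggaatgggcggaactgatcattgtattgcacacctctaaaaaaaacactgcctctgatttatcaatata
Dkk1: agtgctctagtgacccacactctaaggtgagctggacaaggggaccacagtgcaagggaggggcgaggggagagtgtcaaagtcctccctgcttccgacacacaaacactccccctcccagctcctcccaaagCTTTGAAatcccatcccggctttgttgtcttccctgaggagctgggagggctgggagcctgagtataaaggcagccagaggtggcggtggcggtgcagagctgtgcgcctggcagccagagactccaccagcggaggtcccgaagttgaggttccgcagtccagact

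Of these 5 genes, *Sp5*, *Wnt11*, *Wnt5b* and *Sp8* were higher in KO cells on day 3 by log2 fold changes of 4.90, 3.85, 2.24 and 2.33 in turn, and *Dkk1* by 1.44 with overlapping libraries. No match stood in the windows of *Axin2*, *Wnt3*, *Wnt2b* or *Fzd10*, which were higher by 2.55, 3.01, 3.82 and 2.59.

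The course from day 3 to day 5 differed between the genotypes for most members. In WT cells 24 members rose and 1 fell over these days (7.49% and 7.99% of all genes), and in KO cells 18 rose and 10 fell (11.4% and 10.9%). The difference of the changes passed for 32 members, 12 higher and 20 lower in KO, against 9.43% of all genes in either direction. *Fzd9*, *Fzd10*, *Sfrp2*, *Sp8* and *Wnt8a* rose in WT and fell in KO cells, and 11 members rose in both, among them *Wls*, *Frzb*, *Dkk1*, *Sfrp1*, *Wnt5a* and *Rspo3*. Of the 18 members higher in KO cells on day 3, 12 passed in the difference of changes toward lower values in KO, among them *Wnt8a* (-5.99 ± 0.65), *Sp5* (-4.39 ± 0.38), *Axin2* (-3.33 ± 0.29) and *Wnt3* (-2.70 ± 0.50). This difference shares the day 3 libraries with the day 3 comparison, so a high day 3 value in KO pulls it down. Without WT replicate 3 of day 5 the rise of *Wnt8a* in WT cells (1.48 ± 0.44) became -0.16 (adjusted p = 0.808) and its difference of changes -4.39, and the rise of *Fzd9* in WT cells became 0.67 (adjusted p = 0.167).

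Of the 18 members higher in KO cells on day 3, 6 were also higher on day 5 (*Dkk1*, *Frzb*, *Lgr5*, *Rspo3*, *Wnt11* and *Wnt9b*), 4 were lower on day 5 (*Fzd9*, *Fzd10*, *Sp8* and *Wnt8a*) and 8 did not pass there. From day 0 to day 3, 20 members rose and 7 fell in WT cells (12.9% and 9.62% of all genes) and 26 rose and 7 fell in KO cells (10.8% and 10.4%). Of these, 16 members rose in both genotypes, and 9 rose in KO cells without passing in WT cells, namely *Axin2*, *Dkk1*, *Fzd10*, *Rspo3*, *Wnt11*, *Wnt2b*, *Wnt5b*, *Wnt6* and *Wnt8a*. Without KO replicate 1 of day 0 the KO rise did not pass for *Dkk1* (adjusted p = 0.111), *Rspo3* (adjusted p = 0.0744) and *Wnt6* (adjusted p = 0.150).

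Within the single experiments, all 20 members past the threshold on day 3 kept their sign, and 20 passed in experiment 1 alone and 14 in experiment 2 alone, where *Dkk1*, *Fzd9*, *Notum*, *Wnt6*, *Wnt7a* and *Wnt9b* did not. Of the 23 on day 5, 19 passed in experiment 1 alone, without *Fzd8*, *Fzd10*, *Sp8* and *Wnt8a*. In experiment 2 alone, day 5 held 1 KO and 1 WT library, which were compared with a spread taken from the other days, so that the result has no replicate of its own. There 18 passed, without *Rspo3*, *Sfrp5*, *Wnt11*, *Wnt5a* and *Wnt9b*, and *Rspo3* changed sign.

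In the catalytic mutant few members passed, and the number depended on the fit. On day 3, 0 members passed in MUT against WT70 by edgeR, DESeq2 or limma, 8 had an unadjusted p under 0.05 (4 higher and 4 lower), and 0.0463% of all genes were higher and 0.102% lower. On day 5, 2 members were higher, *Wnt8a* and *Rspo3*, and 0 lower, against 1.26% and 0.611% of all genes. By DESeq2 4 passed on day 5 and by limma 3. With only the compared libraries in the fit 3 members passed on day 3 and 8 on day 5, and with all WT lines as controls 1 and 9. WT70 had 1 library a day, and its spread was taken to be that of the other groups. The shares of all genes given for MUT are those past the threshold in the main edgeR fit. Shares at an unadjusted p under 0.05 or in the other fits are not given here, so counts of members from these are not read against them.

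*Wnt8a* was at 1.50 CPM in WT70 and 9.11 and 11.8 CPM in MUT libraries on day 5, both MUT libraries being higher (2.79 ± 0.72, adjusted p = 0.0315). Without either MUT library the pass was lost, at 2.97 (adjusted p = 0.0615) without replicate 1 and 2.59 (adjusted p = 0.118) without replicate 2. The MUT level was close to that of WT replicate 3 in experiment 2, at 11.0 CPM. *Rspo3* was at 2.50 CPM in WT70 and 27.0 and 19.7 CPM in MUT, again with both MUT libraries higher (3.21 ± 0.73, adjusted p = 0.0130). Without MUT replicate 1 it was at 2.98 (adjusted p = 0.0625). The primitive streak markers summed to 15.2 CPM in WT70, where Mixl1 was at 0, and 95.3 to 115 CPM in MUT. The mesoderm markers summed to 89.1 CPM in WT70 and 166 to 169 CPM in MUT, and the endoderm markers to 29.1 and 105 to 108 CPM, both with all markers at counts above 0 in each group. These sums were higher in MUT, and their part in these differences was not tested.

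Set against the KO effect, the MUT effect was smaller for several members. On day 3 the 2 effects differed for 3 members (0.394% of all genes in either direction). The difference, KO effect minus MUT effect, was 3.22 ± 0.67, adjusted p = 0.0164 for *Wnt11*, 1.95 ± 0.40, adjusted p = 0.0137 for *Axin2* and -1.14 ± 0.22, adjusted p = 0.00735 for *Sfrp1*. *Axin2* was at 9.60 CPM in WT70 and 15.6 and 13.6 CPM in MUT on day 3 (0.60 ± 0.36). *Sfrp1* was at 72.4 and 50.6 and 53.6 CPM (-0.48 ± 0.18), and *Wnt11* at 0.872 and 1.22 and 1.48 CPM (0.63 ± 0.58). Without MUT replicate 2 none of the 3 differences passed, at 3.37 (adjusted p = 0.0711) for *Wnt11*, 1.85 (adjusted p = 0.107) for *Axin2* and -1.10 (adjusted p = 0.0511) for *Sfrp1*, and without MUT replicate 1 *Wnt11* did not, at 3.09 (adjusted p = 0.0833).

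On day 5 the 2 effects differed for 9 members (3.62% of all genes in either direction), 3 with the KO effect above the MUT effect and 6 below. *Fzd5* was at 36.8 CPM in WT70 and 33.9 and 29.0 CPM in MUT, without the rise seen in KO cells (2.25 ± 0.23, adjusted p = 6.64e-07). *Frzb* was at 45.9 and 51.0 and 48.2 CPM (1.72 ± 0.29, adjusted p = 0.000379), and *Fzd4* at 11.2 and 20.2 and 19.8 CPM (1.60 ± 0.24, adjusted p = 8.91e-05). *Fzd4* was somewhat higher in MUT than in WT70 as well (0.83 ± 0.20, adjusted p = 0.0221, under the threshold in size).

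Among the 6 below, *Wnt8b* was at 22.3 CPM in WT70 and 9.64 and 10.8 CPM in MUT on day 5, so that both groups expressed it (-4.25 ± 0.97, adjusted p = 0.00833). *Sfrp2* was at 54.2 and 35.6 and 36.2 CPM, lower in MUT but by less than in KO cells (-1.59 ± 0.19, adjusted p = 3.96e-06). *Rspo2* was at 18.3 and 6.99 and 8.71 CPM (-2.89 ± 0.82, adjusted p = 0.0360), a pass lost without replicate 3 of KO or of WT or without either MUT library. The others were *Fzd9* (-2.63 ± 0.62), *Nkd2* (-1.46 ± 0.35) and *Wnt8a* (-4.57 ± 0.90), the last of which was -3.10 (adjusted p = 0.00332) without WT replicate 3. The *Wnt8b* value ran from -5.48 to -3.48 without 1 KO library. For *Wnt8b* and *Rspo2* the MUT libraries lay within the range of the WT7 and WT34 libraries of day 5, and WT70 lay above it. *Lgr5* and *Dkk1*, higher in KO cells on day 5, were at 11.1 and 9.14 and 15.3 and 14.7 CPM in MUT against 2.78 and 4.34 CPM in WT70, and neither the MUT effect nor the difference of effects passed.

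**Figure D5:**
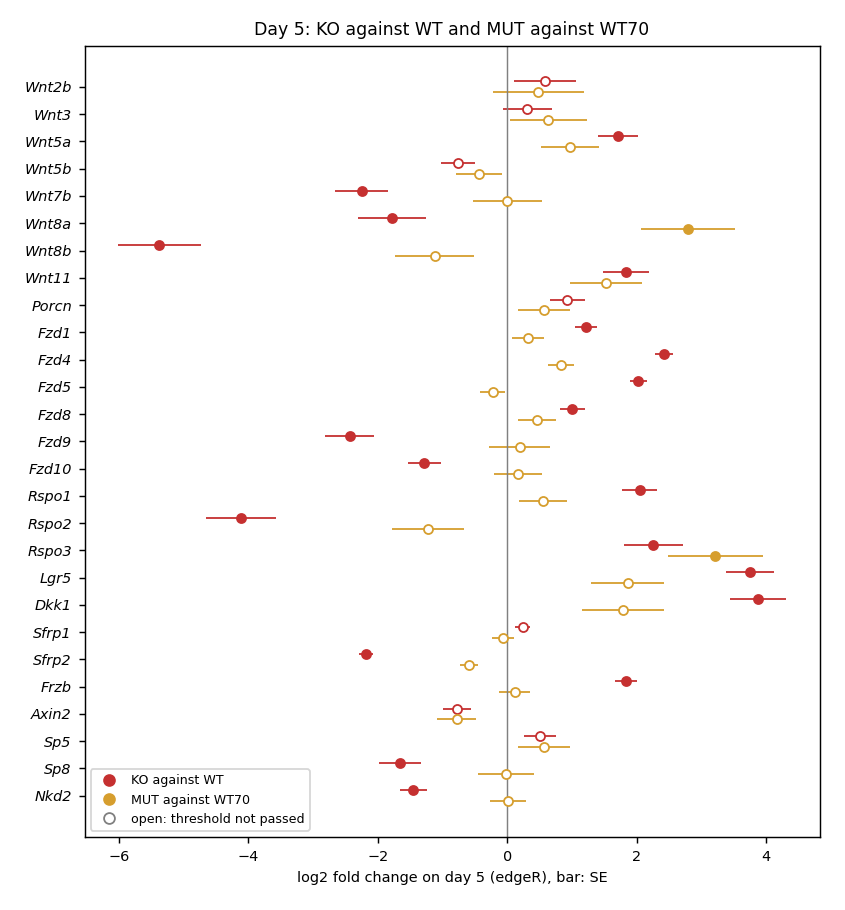
Log2 fold change on day 5 (horizontal axis, bars are 1 SE) of the 27 members described by library, in KO against WT (red) and MUT against WT70 (yellow). Filled points passed the threshold and open points did not. In MUT only Wnt8a and Rspo3 passed, and Wnt8a lay on the other side of 0 from the KO value.

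Of 44 further genes of the pathway, 43 were tested, and 5 were higher and 0 lower in KO cells on day 3, 5 higher and 4 lower on day 4, and 9 higher and 5 lower on day 5. On day 0 0 were higher and 1 lower, and on days 1 and 2 0 passed. Of all genes tested, 2.09% were higher and 1.87% lower on day 3, 3.4% and 4.28% on day 4 and 5.99% and 5.73% on day 5. On day 0 these shares were 0.569% and 0.296%. By list, 1 of the 20 tested genes of other ligands, receptors and antagonists was higher and 0 lower on day 3, 1 and 3 on day 4 and 5 and 3 on day 5, and of the 8 other genes known as targets 4 were higher and 0 lower on day 3, 2 and 1 on day 4 and 3 and 2 on day 5. The 10 genes of the destruction complex and Dishevelled passed on none of these days in either direction. In so short a list this is near the shares of all genes and is not read as a result. Among the 5 TCF/LEF and beta-catenin genes, 0 passed on day 3, 2 were higher on day 4 and 1 on day 5. *Tcf7* (0.52 ± 0.11) and *Tcf7l1* (-0.57 ± 0.11) were under the threshold in size on day 3, though several SE from 0, so they are not read as unchanged. *Lef1* (-0.11 ± 0.15) lay within 1 SE of 0 on day 3. *Tcf7l2* was higher on day 4 (1.40 ± 0.20) and day 5 (1.61 ± 0.16), and *Lef1* on day 4 (1.36 ± 0.22).

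Among other genes known as targets, Brachyury (gene *T*), which is also one of the streak markers, was higher in KO cells on day 3, with mean levels of 3.12 CPM in WT and 206 CPM in KO cells (6.21 ± 0.46, adjusted p = 6.06e-10). It was also higher on days 4 (2.48 ± 0.49) and 5 (2.05 ± 0.42, and 3.61 without WT replicate 3). In MUT cells it was higher on day 5 (2.81 ± 0.69), a pass lost without replicate 1 (adjusted p = 0.0764) or replicate 2 (adjusted p = 0.0581). *Tnfrsf19* was higher in KO cells on day 3 (1.78 ± 0.20) and lower on day 5 (-1.79 ± 0.23). *Cdx2*, a posterior homeobox gene, had 2 counts in WT on day 3 and a CPM ratio of 44.5 (exact 95% interval 12.0 to 373). *Bambi*, a TGF-beta pseudoreceptor, was higher on day 5 (2.22 ± 0.21). *Celsr3*, a planar polarity cadherin of neurons, was lower in KO cells on day 0 (-1.46 ± 0.12), day 4 (-1.53 ± 0.11) and day 5 (-1.99 ± 0.11).

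*Wnt1*, the ligand of the midbrain and dorsal neural tube, was the ligand gene with the largest share in WT cells on day 5 when added to the 16, with 7.34 TPM or 34.6% of the sum. It had a mean of 11.3 CPM in WT cells on day 4 and 0 counts in both KO libraries, at least 103-fold lower against a floor of 3 counts over the group. On day 5 its means were 37.9 CPM in WT and 0.369 CPM in KO (-6.74 ± 0.35, adjusted p = 2.17e-10). In MUT cells *Wnt1* was expressed, at 41.7 CPM against 105 CPM in WT70 (-1.33 ± 0.32, adjusted p = 0.0296), a pass lost without replicate 1 (-1.28) or replicate 2 (-1.37), and the KO and MUT effects differed (-5.41 ± 0.54, adjusted p = 8.98e-06). The MUT mean lay close to the 37.9 CPM of the WT7 and WT34 libraries, which came from other experiments. Both of these results were taken against the 1 WT70 library.

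Over time, *Ror1*, a receptor for *Wnt5a*, rose from day 0 to day 3 in WT (4.30 ± 0.29) and KO cells (5.06 ± 0.32), as did *Celsr3* (1.00 ± 0.10 and 1.49 ± 0.11), which fell again from day 3 to day 5 (-1.45 ± 0.09 and -2.47 ± 0.10). *Celsr2*, a relative of *Celsr3*, rose in WT (1.50 ± 0.17) and *Ptk7*, a co-receptor of planar polarity, in KO cells (1.10 ± 0.07) up to day 3. From day 3 to day 5 *Tnfrsf19* rose in WT cells (2.25 ± 0.21), *Bambi* rose in KO cells (2.22 ± 0.19) and *Ccnd1*, the cyclin D1 gene, fell by 2.00 ± 0.13 in KO cells. *Wnt1* rose in WT cells with a CPM ratio of 886 (exact 95% interval 303 to 4303, from 3 counts on day 3). The KO and MUT effects on day 5 also differed for *Celsr3* (-1.94 ± 0.18) and *Ccnd1* (-1.77 ± 0.25).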

How the data were processed

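RNA was sequenced in 36 libraries of 7 cell lines (KAPA stranded mRNA libraries, single-end reads on a HiSeq4000). The authors used Trim Galore 0.6.4 for trimming and Salmon 0.14.1 with the GENCODE mouse M23 annotation (mm10) for quantification, and summed transcripts to genes with tximport, which gave the deposited estimated counts and the deposited TPM values, which the authors scaled by transcript length and library. The 6 tables held 54281 genes each, 73.8% of the estimated counts were whole, and the counts were rounded before testing. The deposited tables used here hold no column of comparisons. Groups came from the labels. No 2 libraries held identical values.

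Genes were kept by edgeR's filterByExpr (minimum count 10, minimum total 15), which left 21601. One quasi-likelihood model in edgeR 4.0.16 (R 4.3.3) with TMM scaling held 16 group means and a term for experiment 2 (17 terms, 19 residual degrees of freedom), so that all groups shared 1 estimate of the spread. The SE of a log2 fold change is its size divided by the square root of F. p-values were adjusted by Benjamini-Hochberg over all genes tested, and a gene passed at an adjusted p under 0.05 and a log2 fold change over 1 in size. The fit was tested on simulated data. CPM ratios with 1 to 3 counts in a group carry an exact 95% interval for counting error only, and groups at 0 were set against 3 counts.

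The members and all gene lists were chosen with earlier results of these data known. Members were described by library where they passed on at least 1 day without overlap and with a mean of at least 5 CPM in the higher group, or passed in MUT against WT70. Lack of overlap in KO against WT was thus part of the choice. It was common with so few libraries, and held for 23 tested members on day 0, 22 on day 1, 26 on day 2 and 26 on day 3. On days 4 and 5 it held for 35 and 30. The share of all genes without overlap is not given here, so lack of overlap is not read as particular to the members. In MUT against WT70 it held for 43 on day 3 and 46 on day 5. Up to 4 members a class with the smallest p were named for each change over time, and up to 3 of the other pathway genes for each comparison, besides *Wnt1*, T, *Tcf7*, *Tcf7l1* and *Lef1*. Other members are named to account for them, and were chosen after their values were seen. Replicates 1 and 2 are the same cell lines on each day, so that the numbers pair the libraries over time. The deviations of WT7 from WT34 correlated across genes with r = 0.0216 between days 0 and 3 and 0.108 between days 3 and 5, and those of KO1 from KO15 with 0.107 and 0.0733. Alternatives were DESeq2 1.42.0, size factors by RLE, no filter, a log2 fold change over 1.5, limma 3.58.1 on log2(TPM + 1) for genes with a TPM of 1 in at least 2 libraries, only the compared libraries, each experiment alone, 1 summed library per line, the cell line as a replicate block, all WT lines as controls of MUT, and each library left out. *Tet1* and any protein sequences were not analysed here.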

Additional observations from a re-analysis of the deposited data

Results flagged for a closer look

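The change from day 3 to day 5 differed between KO and WT cells, by the test of that difference, for 32 members. As log2 differences of changes (KO minus WT, ± SE), the values below 0 among the ligands were *Wnt2b* (-3.24 ± 0.79), *Wnt3* (-2.70 ± 0.50), *Wnt3a* (-5.11 ± 1.13), *Wnt5b* (-3.00 ± 0.35), *Wnt6* (-3.33 ± 0.67), *Wnt8a* (-5.99 ± 0.65), *Wnt8b* (-6.56 ± 1.15), *Wnt10b* (-1.29 ± 0.46) and *Wnt11* (-2.01 ± 0.48). Among receptors, R-spondins and antagonists they were *Fzd9* (-3.70 ± 0.47), *Fzd10* (-3.87 ± 0.35), *Rspo2* (-4.76 ± 0.79) and *Sfrp2* (-2.20 ± 0.14). Among feedback targets they were *Axin2* (-3.33 ± 0.29), *Sp5* (-4.39 ± 0.38), *Sp8* (-3.99 ± 0.43), *Nkd1* (-1.53 ± 0.29), *Nkd2* (-1.40 ± 0.26), *Notum* (-1.64 ± 0.52) and *Apcdd1* (-1.18 ± 0.38). Values above 0 were *Wnt5a* (1.29 ± 0.44), *Fzd1* (1.36 ± 0.23), *Fzd2* (1.31 ± 0.20), *Fzd4* (2.70 ± 0.18), *Fzd5* (2.70 ± 0.17), *Fzd7* (1.34 ± 0.17), *Fzd8* (1.27 ± 0.26), *Rspo1* (1.56 ± 0.34), *Lgr5* (2.32 ± 0.49), *Dkk1* (2.44 ± 0.63), *Sfrp1* (1.85 ± 0.16) and *Sfrp5* (2.48 ± 0.68), of which all but *Wnt5a* are receptors, R-spondins, R-spondin receptors or antagonists. In a fit blocked by cell line (replicate block) the *Wnt10b* difference did not pass (-1.35, adjusted p = 0.0639), and it did not pass without any 1 of 12 libraries (adjusted p from 0.0510 to 0.101). The *Wnt5a* difference did not pass without any 1 of 8 libraries, among them WT replicate 1 of day 5 (0.93, adjusted p = 0.124), and was 2.09 without WT replicate 3 of day 5. The *Apcdd1* difference was lost without any 1 of 4 libraries, with -0.55 (adjusted p = 0.125) without WT replicate 3 and -0.75 (adjusted p = 0.0951) without KO replicate 3 of day 5. Without the same 2 libraries in turn the *Notum* difference was -1.23 (adjusted p = 0.125) and -1.30 (adjusted p = 0.0843), and neither passed. Without KO replicate 3 of day 5 those of *Fzd8* (0.84) and *Rspo1* (0.98) were under the threshold in size, and without WT replicate 4 of day 3 that of *Dkk1* did not pass (1.86, adjusted p = 0.0876). Without WT replicate 3 of day 5 other values that still passed moved by over 1.5 times, to 3.58 for *Dkk1*, 3.59 for *Lgr5*, 3.18 for *Sfrp5*, -2.52 for *Wnt2b*, -4.04 for *Wnt3a*, -4.39 for *Wnt8a*, -4.02 for *Rspo2* and -3.17 for *Sp8*. Without other single libraries *Fzd9* (-4.30 without KO replicate 2 of day 5), *Rspo2* (-4.11 without KO replicate 2 of day 3), *Sfrp5* (1.86 without WT replicate 2 of day 3), *Wnt2b* (-3.86 without the same library), *Wnt3a* (-4.35 without KO replicate 3 of day 5), *Wnt8a* (-6.67 without KO replicate 2 of day 5) and *Wnt8b* (-7.82 and -5.83 without KO replicate 1 or 3 of day 5, and -7.40 without WT replicate 3 of day 3) also moved by that much and still passed.

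The KO and MUT effects differed on day 3, by the test of that difference, for *Wnt11* (3.22 ± 0.67), *Axin2* (1.95 ± 0.40) and *Sfrp1* (-1.14 ± 0.22), as KO minus MUT, and without MUT replicate 2 none of the 3 passed (adjusted p = 0.0711, 0.107 and 0.0511), nor *Wnt11* without MUT replicate 1 (adjusted p = 0.0833). On day 5 they differed for *Fzd4* (1.60 ± 0.24), *Fzd5* (2.25 ± 0.23) and *Frzb* (1.72 ± 0.29) above 0 and for *Wnt8a* (-4.57 ± 0.90), *Wnt8b* (-4.25 ± 0.97), *Fzd9* (-2.63 ± 0.62), *Rspo2* (-2.89 ± 0.82), *Sfrp2* (-1.59 ± 0.19) and *Nkd2* (-1.46 ± 0.35) below 0. Of these, *Rspo2* did not pass without any 1 of 4 libraries (adjusted p from 0.0602 to 0.108), and *Wnt8a* was -3.10 without WT replicate 3 of day 5. Dixon's ratio was applied to the 4 KO and the 4 WT libraries of day 3 for 27 members, and in 0 of these 54 sets did a library stand far from the others. With 4 values the ratio flags only a single library far away. It cannot flag a pair that stands apart together, as those of experiment 1 did for *Sp5* and *Fzd10* in KO cells. No conclusion on the agreement of the libraries is drawn from it.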

How the results depend on the processing

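Counts of members past the threshold were compared over 195 alternatives, of which 169 lay within 1.5 times the value reported and 26 did not. With no filter on low counts 3 members passed in KO against WT on day 0, 4 on day 2, 4 in MUT against WT70 on day 3 and 4 on day 5, and 11 and 17 in the difference of KO and MUT effects on days 3 and 5. With DESeq2 2 passed in KO against WT on day 0, 4 in MUT against WT70 on day 5, and 7 and 14 in the difference of effects on days 3 and 5. With limma on log2(TPM + 1), which changed the test, the measure, the pseudocount and the gene filter together, 0 passed in KO against WT on day 0, 9 on day 3 and 12 on day 5, 11 and 14 in WT cells over days 0 to 3 and 3 to 5, and 19 in KO cells over days 0 to 3. With only the compared libraries 3 and 8 passed in MUT against WT70 on days 3 and 5 and 9 in the difference of effects on day 3, and with all WT lines as controls of MUT 1 and 9 passed on days 3 and 5. The cause of these differences was not tested. The shares of all genes passing in these other fits are not given here, so a larger or smaller count is not read as a result about the members.

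Without 1 library, 1 to 2 members passed in KO against WT on day 0, 18 to 22 on day 3, 10 to 11 on day 4 and 20 to 24 on day 5, 0 to 1 in MUT against WT70 on day 5, and 0 to 5 and 8 to 13 in the difference of effects on days 3 and 5. The 0 on day 3 came without MUT replicate 2, the 5 without WT replicate 3, and the 0 in MUT on day 5 without MUT replicate 1. With 1 summed library per line, 18 members passed on day 3 and 21 on day 5. In the fit blocked by cell line, which keeps replicates of a line together, 27 and 24 passed in WT cells and 33 and 28 in KO cells over the 2 intervals, and 31 in the difference of changes. Besides *Fzd9* in WT cells after day 3 and *Wnt10b* in the difference of changes, the block ended no pass.

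Of 3396 recomputed passes of single genes, 3138 were kept and 258 were not, and 2 changed sign: *Rspo3* in KO against WT on day 5 in experiment 2 alone (-0.050) and *Wnt8a* in WT cells from day 3 to day 5 without WT replicate 3 (-0.16, with values from -0.16 to 1.88 without 1 library). Depth limits the genes below 1 CPM, such as *Wnt7a* and *Wnt9b*, where 1 library often decided the pass. MUT rests on 2 clonal lines against 1 control line, and experiment cannot be told apart from day on days 0, 1, 2 and 4.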
